A study of Homo sapiens with 5 samples.

Results

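Matricellular proteins are secreted into the extracellular matrix, where they change how cells attach and signal rather than bearing load. The genes described here are 8 of these proteins and 2 fibril-forming matrix proteins, fibronectin (FN1) and fibrillin-1 (FBN1). The 8 are the thrombospondins THBS1 and THBS2, tenascin-C (TNC), periostin (POSTN), CCN1 (formerly CYR61), CCN2 (formerly CTGF), SPARC and osteopontin (SPP1). All probe sets that the platform annotation assigns to one of these symbols were taken, which gave 24 probe sets for 10 genes, of 22215 probe sets and 11963 genes on the arrays. Each of the 10 genes was measured.

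The cells were HES2, an established human embryonic stem cell (hESC) line, that carried a lentiviral vector for hsa-miR-122 and differentiated spontaneously for 2 weeks without feeder cells and without bFGF. In 2 samples the vector encoded wt miR-122, a liver-specific miRNA, and in 3 control samples a mutant miR-122 with 3 changed bases in its seed. According to the methods, the miRNA stood under the H1 promoter in both vectors, which also carried a red fluorescent reporter, the cells were grown on foreskin feeder cells and then moved to dishes coated with human fibronectin, and the arrays are independent experiments. No array of untransduced cells was analysed here, and the age and passage of the single cultures are not given in the labels. RNA of each sample was hybridized to 1 Affymetrix Human Genome U133A 2.0 array, so the values report RNA and not the fibronectin protein of the dish.

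The miRNA that separates the groups is printed here because its seed, bases 2 to 8 from the 5′ end and shown in capitals, is the part that the mutant changes. The mature sequence is that of RefSeq, at 18:58451088-58451109 on the plus strand of GRCh38.p14.
hsa-miR-122-5p: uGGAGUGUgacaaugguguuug
No probe set of the annotation is assigned to this miRNA, so the arrays do not check the labels.

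Fibronectin is secreted as a dimer that cells assemble into fibrils through the integrin alpha 5 beta 1, and fibrillin-1 forms the microfibrils that carry elastin and hold latent TGF-beta. Thrombospondins, tenascin-C and periostin bind to such fibrils and to integrins or CD47 and CD36, and THBS1 can also activate latent TGF-beta. CCN1 and CCN2 are small secreted proteins whose genes are well-known targets of YAP and TEAD and of TGF-beta. SPARC binds collagen, and osteopontin binds integrins and CD44. In differentiating hESC, several of these genes are made by mesenchymal and endodermal cells.

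Values are RMA values on the log2 scale, with 1 unit a doubling. A difference is the mean of wt minus the mean of mutant miR-122-expressing cells, given with the standard error (SE), the 95% interval where shown, and the adjusted p of limma over all 22215 probe sets. The array medians lay between 6.32 and 6.36, and any pair of arrays correlated across probe sets at 0.995 to 0.997. The groups are small, and an exact permutation test of 3 against 2 arrays cannot give a two-sided p below 0.1.

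By limma with an adjusted p under 0.05, none of the 24 probe sets rose or fell, where 0.194% of all probe sets rose and 0.189% fell. Most of them nevertheless had lower values in wt miR-122-expressing cells. The difference was below 0 on 21 of the 24 probe sets, against 42.1% of all probe sets, and above 0 on 3, against 57.9%. Both wt arrays lay below all 3 mutant arrays on 12 of the 24, against 12.5% of all probe sets, and above them on 0 of the 24, against 20.3%. At an unadjusted p under 0.05 from limma, 8 probe sets were lower and 1 higher, where 6.37% of all probe sets were lower and 8.06% higher. Without mutant replicate 1, 2 or 3, 12, 9 and 7 were lower, where 5.43%, 6.7% and 5.76% of all probe sets were. The 1 higher, THBS2, became 0 without mutant replicate 1 or 2. Without a wt array, 1 is left, and the spread within wt cannot be estimated. There limma takes the spread from the mutant arrays, so only directions are given. The difference was below 0 on 22 of the 24 without wt replicate 1 and on 20 without wt replicate 2. Over all 22215 probe sets it was below 0 on 10035 and 9090. The methods' t-test gave 1 lower, where 3.93% of all probe sets were lower, and 0 higher at that level. Probe sets of the same gene share a transcript, so the 24 are not independent.

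Counted once per gene, at the probe set with the highest mean over the 5 arrays, 8 of the 10 genes had a lower mean in wt miR-122-expressing cells, against 41.6% of all genes, and THBS2 and SPP1 a higher one, against 58.4%. None rose or fell (0.267% and 0.234% of all genes), and at an unadjusted p under 0.05 from limma 5 were lower and 1 higher, where 6.87% of all genes were lower and 8.84% higher. The 5 became 6 without mutant replicate 1 and 4 without mutant replicate 2 or 3. With 1 wt array left, the mean was lower in 9 genes without wt replicate 1 and in 8 without wt replicate 2. Shares of all genes were not computed with an array left out. The values over all probe sets, given above, count another unit. The groups did not overlap in 6 genes, all lower in wt (FN1, FBN1, THBS1, TNC, CCN2 and SPARC), against 13.4% of all genes. The median difference of the 10 genes was -0.30, and that of all genes was 0.03. The differences ran from -0.45 for TNC and FBN1 to 0.45 for THBS2. In bulk RNA, fewer cells that make these proteins and less of the RNA per cell cannot be told apart.

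**Figure D1:**
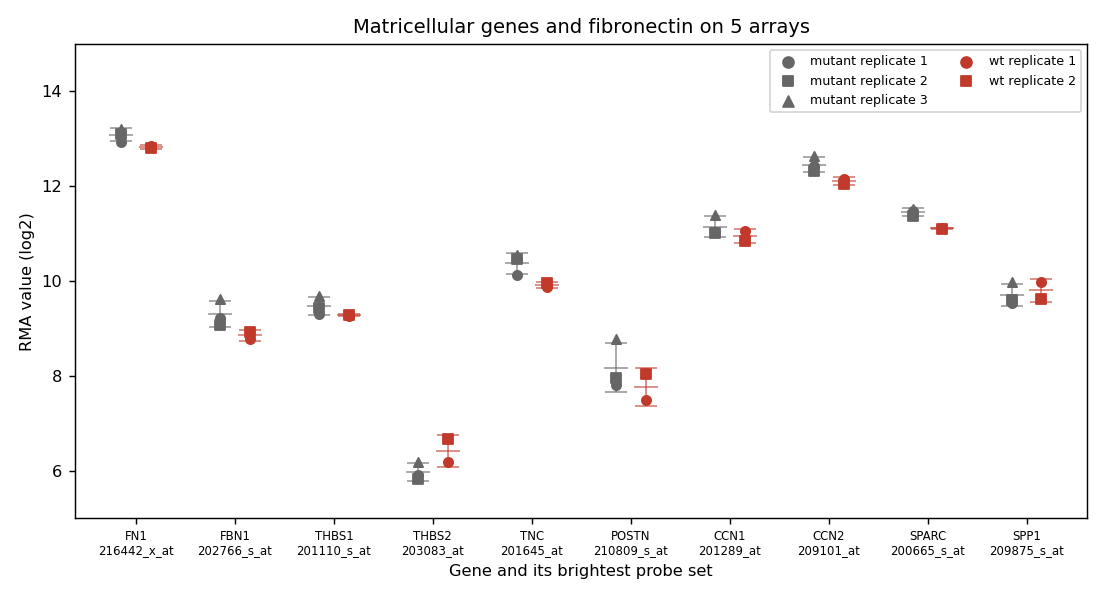
RMA values (log2 axis units, not starting at 0) of the 10 genes at their brightest probe sets. Symbols are single arrays (circles, squares and triangles are replicates 1, 2 and 3), mutant in grey and wt in red, each group with its mean and an error bar of 1 SD (n = 3 and 2). Both wt arrays lie below all mutant arrays in FN1, FBN1, THBS1, TNC, CCN2 and SPARC, and mutant replicate 3 is the highest array in every gene but THBS2.

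Before the single genes, 1 array has to be named. Mutant replicate 3 gave the highest value of the 5 arrays on 22 of the 24 probe sets, where it was highest on 18.2% of all probe sets. On the 10 genes it lay above the mean of the arrays by a median of 0.30, with a largest deviation of 0.76 in POSTN. The medians of the other arrays lay between -0.19 and -0.02. Its median over all probe sets deviated from the mean of the arrays by only -0.01. RMA gives the arrays a common distribution, so this median cannot show whether mutant replicate 3 was bright in general. Without it, the median difference of the 10 genes was -0.16, and 18 of the 24 differences were below 0, where 9595 of all 22215 were. The median of all genes was not computed without this array. In that comparison both wt arrays lay below the remaining mutant arrays on 12 probe sets, against 17.6% of all probe sets, and above them on 2, against 26.7%. Leaving out a mutant array can only add to such counts, so the 12 do not bear on the part of this array.

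**Figure D2:**
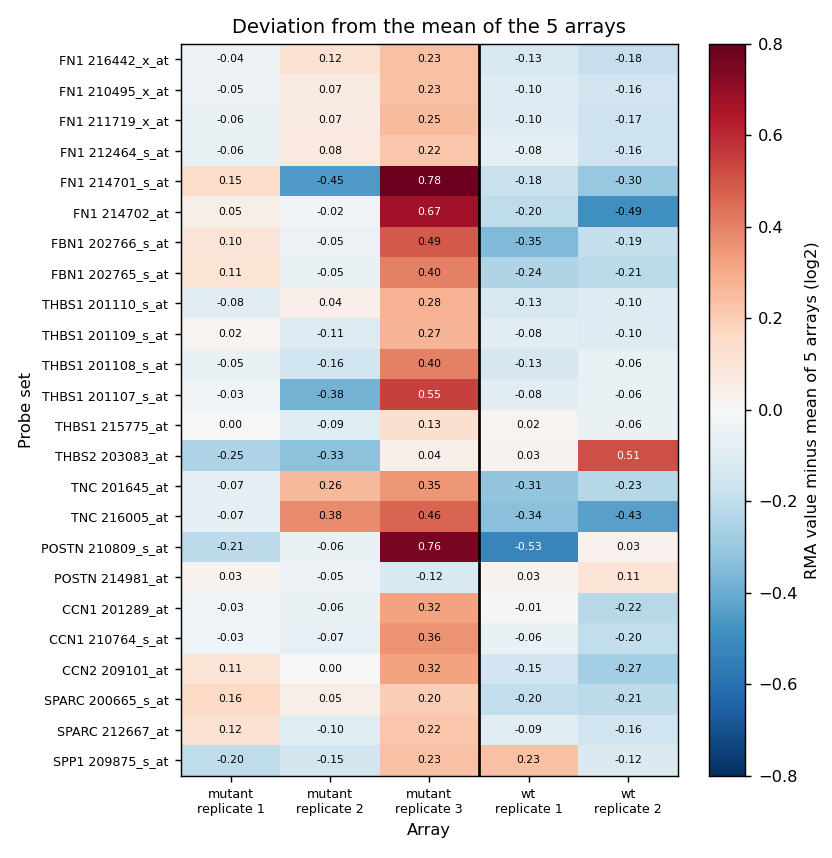
Deviation of each array from the mean of the 5 arrays (log2, colour and printed value) on the 24 probe sets, with mutant arrays left and wt arrays right of the line. The column of mutant replicate 3 is positive on every probe set but 214981_at of POSTN, and wt replicate 2 is positive on 3 probe sets, 203083_at of THBS2 (0.51) and both of POSTN.

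Fibronectin was measured by 6 probe sets, all with lower means in wt miR-122-expressing cells. On 216442_x_at, the brightest, the mutant arrays were at 12.94, 13.10 and 13.21 and the wt arrays at 12.85 and 12.80. The wt arrays were thus close together and just below the lowest mutant array. The difference was -0.26 (SE 0.096, 95% interval -0.48 to -0.04, adjusted p = 0.281 from limma), or 1.2-fold. The other bright probe sets, 210495_x_at, 211719_x_at and 212464_s_at, gave -0.21, -0.22 and -0.20, and in each the groups did not overlap. Without mutant replicate 3 they gave -0.14, -0.14 and -0.13. These 4 probe sets were made to the same gene, and their agreement is no replication.

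The remaining 2 probe sets of FN1 are dimmer. On 214702_at the mutant arrays were at 6.21, 6.14 and 6.84 and the wt arrays at 5.96 and 5.68, again without overlap. The difference there was -0.58 (SE 0.2, adjusted p = 0.254), and -0.36 without mutant replicate 3. On 214701_s_at the mutant arrays spread from 7.16 to 8.40 and enclosed both wt arrays, at 7.44 and 7.32. Its difference of -0.40 (SE 0.29, adjusted p = 0.584) was -0.09 without mutant replicate 3.

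Fibrillin-1 was lower in wt on both of its probe sets, with no overlap. On 202766_s_at the mutant arrays were at 9.23, 9.08 and 9.62 and the wt arrays at 8.78 and 8.94. The difference was -0.45 (SE 0.15, 95% interval -0.80 to -0.10, adjusted p = 0.236 from limma), and the dimmer 202765_s_at gave -0.38 (SE 0.13, adjusted p = 0.239). Mutant replicate 3 stood above the other mutant arrays on both. Without it the brighter probe set gave -0.30.

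The means of the thrombospondins differed in opposite directions. THBS1 had 5 probe sets, all with slightly lower means in wt, from -0.19 to -0.03. On 201110_s_at, the brightest, the mutant arrays were at 9.32, 9.44 and 9.68 and the wt arrays at 9.27 and 9.30. The wt values lay just under the lowest mutant value, and the difference of -0.19 (SE 0.11, adjusted p = 0.47 from limma) had a 95% interval from -0.45 to 0.06. On the other 4 probe sets the groups overlapped. Without mutant replicate 3 the difference was -0.09 on the brightest probe set, -0.05 on 201109_s_at and above 0 on 201108_s_at, 201107_s_at and 215775_at, at 0.01, 0.13 and 0.03.

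THBS2, a relative with a similar domain layout, was the one gene whose 95% interval lay above 0. On its single probe set, 203083_at, the mutant arrays were at 5.91, 5.83 and 6.19 and the wt arrays at 6.18 and 6.67. The higher mean came mainly from wt replicate 2, and wt replicate 1 lay level with mutant replicate 3, so the groups overlapped. The difference was 0.45 (SE 0.16, 95% interval 0.08 to 0.82, adjusted p = 0.261 from limma), falling to 0.21 if wt replicate 2 was dropped and growing to 0.56 if mutant replicate 3 was. Within each array, the THBS1 value minus the THBS2 value was 3.41, 3.62 and 3.48 in mutant and 3.09 and 2.63 in wt. The wt values were below every mutant value, by a mean of 0.65, and the two-sided exact permutation p of 0.1 is the smallest that these arrays can give. Over the 5 ways of leaving out an array this difference ran from -0.88 to -0.41. The 0.65 is a difference of differences, since the probe sets of different genes do not share a scale.

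Tenascin-C, which loosens cell attachment to fibronectin, held the largest difference below 0 of the 24 probe sets. On 201645_at the mutant arrays were at 10.13, 10.46 and 10.55 and the wt arrays at 9.88 and 9.97, with no overlap and with mutant replicate 1 nearest to wt. The difference was -0.45 (SE 0.13, 95% interval -0.74 to -0.16, adjusted p = 0.177 from limma), or 1.37-fold. The dimmer probe set 216005_at also had both wt arrays below all mutant arrays, and mutant replicate 1 again nearest to wt. There the mutant arrays were at 5.72, 6.17 and 6.26 and the wt arrays at 5.46 and 5.36. The difference was -0.64 (SE 0.15, 95% interval -0.99 to -0.29, adjusted p = 0.129), 1.56-fold, and it was -0.54 without mutant replicate 3.

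Periostin, which binds tenascin-C and collagen and is a product of fibroblasts and other mesenchymal cells, varied more between arrays than between groups. On 210809_s_at the mutant arrays were at 7.81, 7.96 and 8.77 and the wt arrays at 7.49 and 8.05. The groups overlapped, and the spread within each was wide, with SDs of 0.52 and 0.40. The difference of -0.41 (SE 0.28, 95% interval -1.06 to 0.24, adjusted p = 0.554 from limma) shrank to -0.12 once mutant replicate 3 was left out, and to -0.13 when wt replicate 1 was. The other probe set, 214981_at, was dim on all arrays, between 2.50 and 2.73, and gave 0.12 (SE 0.081, adjusted p = 0.562).

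CCN2 had lower values in wt miR-122-expressing cells, and CCN1 overlapped. On 209101_at of CCN2 the mutant arrays were at 12.42, 12.32 and 12.64 and the wt arrays at 12.16 and 12.04. Both wt arrays were below every mutant array, and the difference was -0.36 (SE 0.11, 95% interval -0.60 to -0.11, adjusted p = 0.199 from limma), or 1.28-fold. On 201289_at of CCN1 the mutant arrays were at 11.04, 11.01 and 11.40 and the wt arrays at 11.06 and 10.85. The replicates 1 were nearly level, and the difference of -0.19 (SE 0.13, adjusted p = 0.55) had a 95% interval from -0.50 to 0.11, and it shrank to -0.07 without mutant replicate 3 and to -0.086 without wt replicate 2. The other probe set of CCN1, 210764_s_at, gave -0.22 (SE 0.13, adjusted p = 0.512), also with overlap, and -0.078 without mutant replicate 3. Within each array, CCN1 minus CCN2 was -1.38, -1.30 and -1.24 in mutant and -1.10 and -1.19 in wt. Both wt values were above every mutant value, by a mean of 0.16, with a two-sided exact permutation p of 0.2. Since no arrangement of these arrays gives a p below 0.1, the test does not decide whether the CCN genes differed.

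Because CCN1, CCN2 and other matrix genes are known YAP and TEAD targets, the 300 bases around 1 start site of each gene, as given by RefSeq for GRCh38.p14 (250 before, 50 after), were searched on both strands for the TEAD core GGAATG. Promoter sequences were matched for 9 of the 10 genes, without CCN1. The core was found in 5 of these 9, and in 14% of 35116 promoters of the same length. The windows below show the match in capitals, as GGAATG or as its reverse complement CATTCC, 5′ to 3′ on the strand of the gene.
CCN2, at 6:131951453-131951476 on the minus strand: ggaatgcgaGGAATGtccctgttt
FBN1, at 15:48645014-48645037 on the minus strand: ttgggcttgGGAATGgggaccgcg
SPARC, at 5:151686918-151686941 on the minus strand: acccctccaCATTCCcgcggtcct
THBS1, at 15:39581024-39581047 on the plus strand: gaatccccaGGAATGcgagcgccc
THBS2, at 6:169253923-169253946 on the minus strand: tccttcgaaGGAATGaattaaacg
CCN2 holds 3 such cores, and another of them stands in lower case at the left end of its window. THBS2 holds 2, which overlap in no base, and the other genes 1 each. The matches are in genes with lower values in wt and in THBS2, whose mean was higher. FN1, TNC and POSTN, whose means were also lower, held no core in these bases. Neither did SPP1, whose mean was higher. The CAGACA sequence of SMAD factors, which does not overlap the core, was found in SPP1, THBS2 and TNC (16.9% of all promoters), the AP-1 sequence TGANTCA in POSTN (7.71%), and the CArG box in none of the 9 (1.29%). A match is a run of letters and not a bound site.

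**Figure D3:**
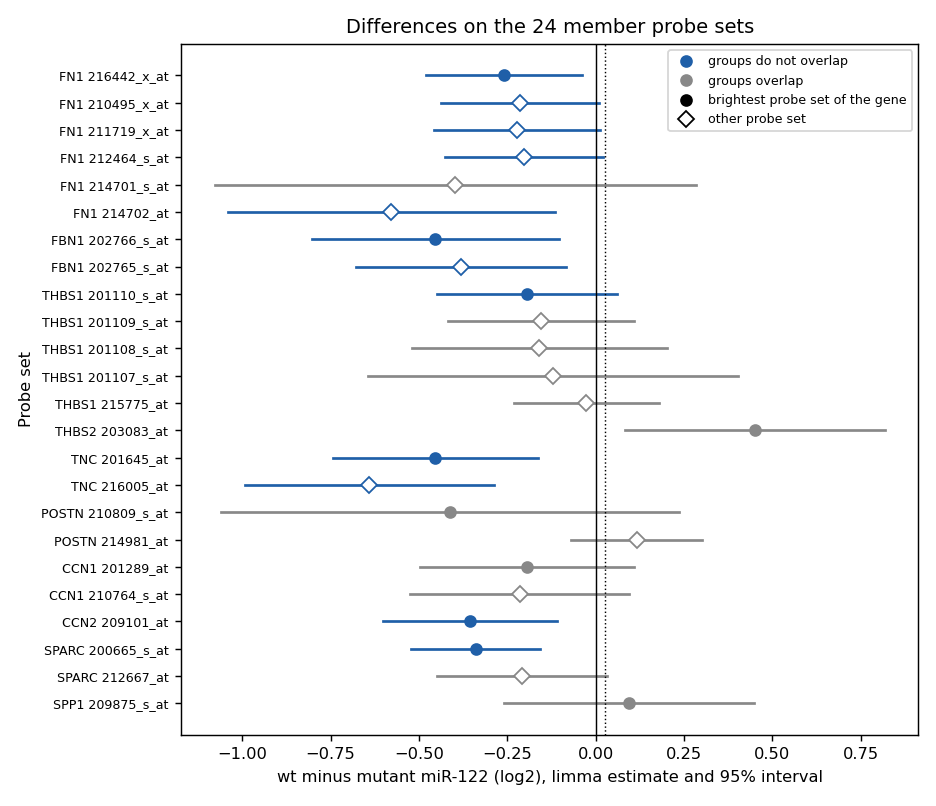
Difference of wt minus mutant miR-122 (log2) on each of the 24 probe sets, with the 95% interval of limma. Blue marks probe sets whose groups do not overlap, filled circles the brightest probe set of a gene and open diamonds its others, and the dotted line is the median of all probe sets, 0.03. Only THBS2, SPP1 and the dim probe set of POSTN lie above 0, and the interval of TNC 216005_at, -0.99 to -0.29, is the one that reaches farthest from 0 on its near side.

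SPARC, a collagen-binding glycoprotein, had the smallest adjusted p of the 24 probe sets, and osteopontin did not differ beyond its spread. On 200665_s_at of SPARC the mutant arrays were at 11.48, 11.37 and 11.52 and the wt arrays at 11.13 and 11.11. The groups were tight and apart, with SDs of 0.08 and 0.01. The difference was -0.34 (SE 0.079, 95% interval -0.52 to -0.16, adjusted p = 0.122 from limma), or 1.27-fold, and it stayed between -0.38 and -0.31 whichever array was left out. With an intensity trend and a robust prior in limma it passed, with an adjusted p of 0.0281, the only member to do so in that setting. The dimmer 212667_at gave -0.21 (SE 0.1, adjusted p = 0.416), with wt replicate 1 level with mutant replicate 2, and -0.14 without mutant replicate 3.

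On 209875_s_at of SPP1 the mutant arrays were at 9.55, 9.60 and 9.98 and the wt arrays at 9.98 and 9.63. The highest array of each group stood at the same level, and the difference was 0.10 (SE 0.15, 95% interval -0.26 to 0.45, adjusted p = 0.824 from limma). Its sign rested on 1 array, and it was -0.08 without wt replicate 1.

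**Figure D4:**
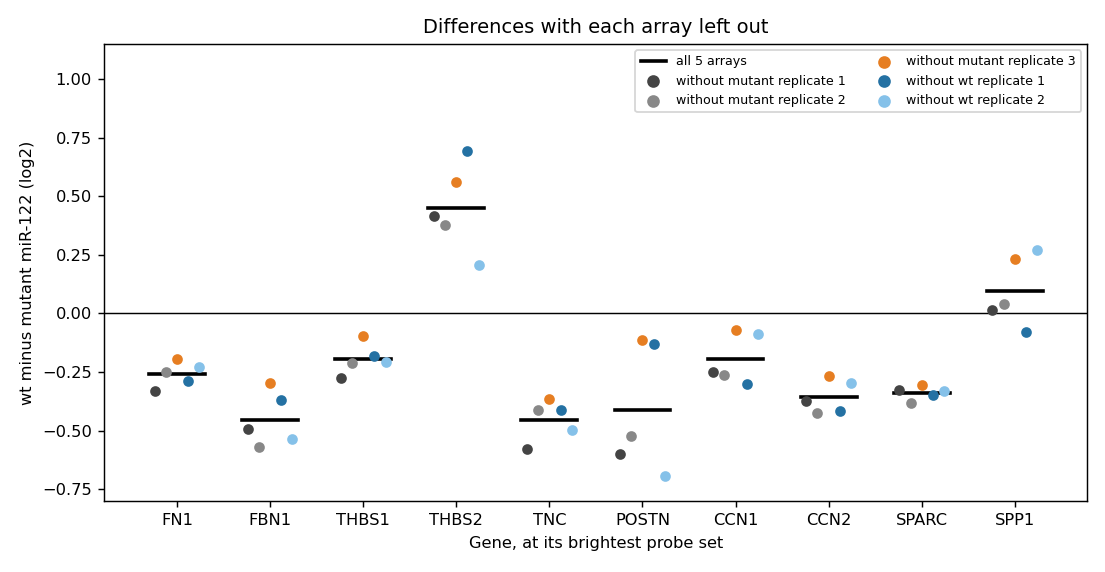
Difference of wt minus mutant miR-122 (log2) of the 10 genes at their brightest probe sets, with all 5 arrays (bar) and with each array left out (points). SPARC moves least, between -0.38 and -0.31, POSTN runs from -0.69 to -0.12, and SPP1 is the one gene whose sign turns.

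The receptors of these proteins were measured by 17 of 18 listed genes, and none of them passed the test in either direction. Their median difference was -0.13. Both wt arrays lay below all mutant arrays in 8 and above them in 1, STAB1, against 13.4% and 21.5% of all genes. ITGAV, the integrin alpha V subunit that pairs into receptors of fibronectin, osteopontin and periostin, was at 11.50, 11.46 and 11.74 in mutant and at 11.07 and 10.94 in wt. Its difference was -0.56 (SE 0.1, adjusted p = 0.0812 from limma). ITGA5, the fibronectin receptor subunit alpha 5, gave -0.26 (adjusted p = 0.216), the syndecan SDC2 -0.23 (adjusted p = 0.248) and ITGA4, a dim alpha 4 subunit, -0.23 (adjusted p = 0.279).

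Among 31 measured relatives, which include other thrombospondins, tenascins, CCN proteins, fibulins and fibrillin-binding proteins, 0 rose and 0 fell. Their median difference was -0.07, with 10 genes without overlap and lower and 3 without overlap and higher, against 13.4% and 21.5% of all genes. MFAP5, a microfibril protein, was at 7.32, 7.15 and 7.75 in mutant and at 6.67 and 6.43 in wt, a difference of -0.85 (SE 0.17, adjusted p = 0.0917 from limma). The fibulins EFEMP2 and FBLN1 gave -0.35 (adjusted p = 0.101) and -0.47 (adjusted p = 0.122). THBS4, a thrombospondin of another subgroup, had a higher mean in wt, without overlap. It was at 6.88, 7.08 and 6.70 in mutant and at 7.44 and 7.32 in wt, a difference of 0.49 (SE 0.11, adjusted p = 0.124).

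Of 13 measured genes of TGF-beta signaling, which induces FN1, CCN2, THBS1 and TNC in many cells, 0 rose and 0 fell, with a median of -0.08. The ligand TGFB2 was at 7.44, 7.37 and 8.06 in mutant and at 6.73 and 6.57 in wt, a difference of -0.97 (SE 0.19, adjusted p = 0.0917 from limma). TGFB1 gave -0.45 (adjusted p = 0.134), the repressor TGIF1 0.18 (adjusted p = 0.307) and the signal transducer SMAD3 -0.20 (adjusted p = 0.41). Of 17 measured genes of the YAP and TEAD pathway likewise 0 rose and 0 fell, with a median of -0.13. The coactivator WWTR1, also called TAZ, was at 9.42, 9.37 and 9.52 in mutant and at 9.06 and 9.03 in wt, a difference of -0.40 (SE 0.079, adjusted p = 0.0917). The pathway's targets MYOF, ANKRD1 and AXL gave -0.48, -0.64 and -0.29 (adjusted p = 0.101, 0.209 and 0.202), each without overlap. F3, another target, gave -0.08 with overlap. In this pathway 6 genes were lower without overlap and 3 higher (TEAD4, LATS1 and MOB1A), against 13.4% and 21.5% of all genes.

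Markers of other cells differed alongside the members. Of fibroblasts, such as the foreskin feeder cells, and of other mesenchymal cells 21 markers were measured, a list that holds none of the 10 genes. Among these markers, 12 had both wt arrays below all mutant arrays and 0 above, against 13.4% and 21.5% of all genes. Their mean level was 8.62, 8.68 and 8.84 on the mutant arrays and 8.30 and 8.54 on the wt arrays, highest on mutant replicate 3, and RMA gives no value of 0. None passed at its brightest probe set. PDGFRB was at -0.56 (adjusted p = 0.0521 from limma), COL1A1 at -0.60 (adjusted p = 0.0711) and COL5A1 at -0.77 (adjusted p = 0.0577). By the mean, 15 of the 21 were lower in wt and 6 higher. The 6 include THY1 (0.23), FAP (0.20) and TWIST1 (0.20), all with overlapping groups. With an intensity trend and a robust prior in limma 4 genes of the list fell. A further probe set of COL5A2, 221730_at, fell by 0.64 (adjusted p = 0.0424). The list median was -0.33, close to the -0.30 of the members. The part of these cells in the values of the members was not tested.

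Of 13 measured markers of undifferentiated hESC, 3 rose (DNMT3B, UTF1 and FGF4) and none fell, with a median of 0.43, and NANOG was at 0.79 (adjusted p = 0.0588 from limma). Of 12 trophoblast markers, 4 fell (HAND1, HSD3B1, EPAS1 and VTCN1) and none rose, with a median of -0.81. Both wt arrays lay below all mutant arrays in 7 of the 12 and above them in 1, against 13.4% and 21.5% of all genes. The 1 was TFAP2C, at 0.32 (adjusted p = 0.186 from limma). GATA2, GATA3 and TFAP2A were at -0.13, -0.18 and -0.08, with overlap. The 3 rises and 4 falls all kept their direction when any array was left out, and HSD3B1 moved most, from -1.93 to -1.20. None of them passed without a mutant array. In those fits 0 of all probe sets rose and 0 fell, so the loss was not particular to these genes. Of 11 endoderm markers, 9 of smooth muscle and heart and 7 of endothelium none rose or fell, with medians of 0.07, -0.36 and 0.10. Both wt arrays lay below all mutant arrays in 5, 6 and 0 of them, and above in 0, 0 and 2. Of all genes, 13.4% lay below and 21.5% above in this way. In the endoderm list 6 genes had higher means in wt. The smooth muscle and heart markers had a mean level of 8.90, 8.88 and 9.07 on the mutant and 8.63 and 8.67 on the wt arrays, also highest on mutant replicate 3. The mean of the endoderm markers was highest there too, at 8.65, with 8.26 to 8.46 on the other arrays. The part of these cell types in the members was not tested either.

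**Figure D5:**
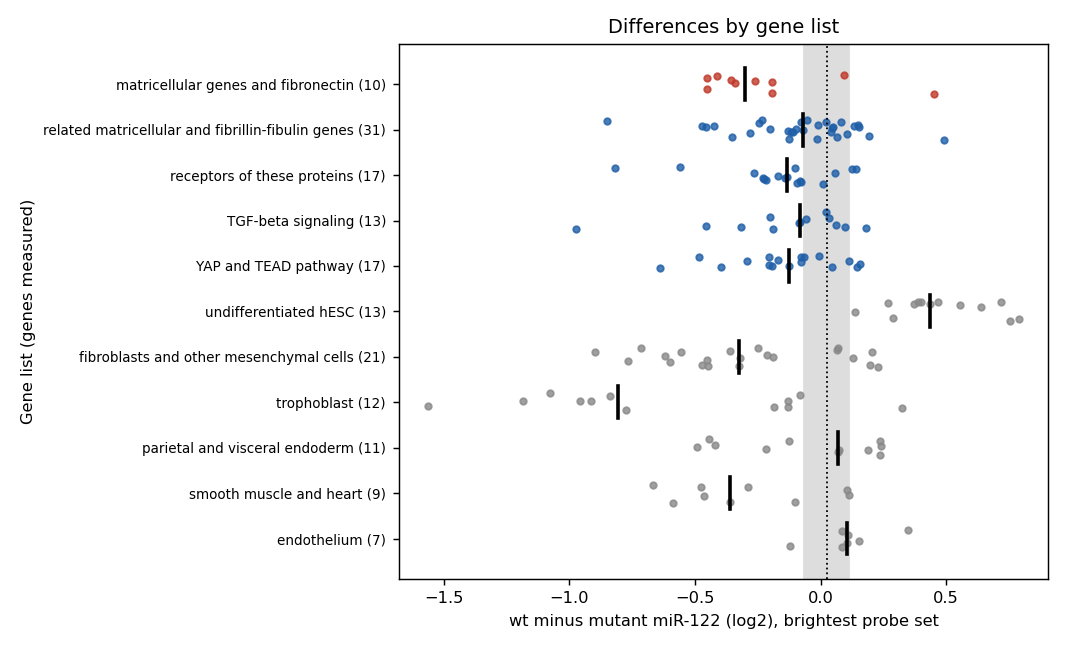
Difference of wt minus mutant miR-122 (log2) of each gene at its brightest probe set, by list, with the number measured. Red are the 10 members, blue the further lists, grey the cell type markers, black bars the list medians, and the grey band holds the middle 50% of all genes, from -0.07 to 0.11, around their median of 0.03 (dotted). The member median of -0.30 lies near those of the mesenchymal (-0.33) and smooth muscle and heart (-0.36) markers.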

How the data were processed

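The authors hybridized 5 samples to Affymetrix Human Genome U133A 2.0 arrays and normalized them with RMA, per the methods and the labels. RMA corrects the background, gives the arrays a common distribution and summarizes each probe set to 1 value. The values they deposited are log2 units, with 1 column for each array and no pooling. Forcing a common distribution would hide a change shared by most genes. Precision is set by the number of arrays, with a median SE of 0.0878 over all probe sets.

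Of 22277 probe sets, the 62 controls of the manufacturer were removed. The other 22215 entered limma (version 3.58.1, R 4.3.3), whose model held only the group, and p-values were adjusted over all of them by Benjamini-Hochberg. The fit had 3 residual and 4.87 prior degrees of freedom. Platform annotation named 1 gene for 19064 probe sets, several for 1043 and none for 2108, and symbols were updated by Entrez ID for 19052. On 20 simulated sets of 22215 probe sets with 200 changed, the model found 96.6% of the 2-fold and 66.6% of the 1.5-fold ones, with 4.71% false among those called. The simulated noise followed the variance distribution that limma itself fits and was independent between probe sets. Shared deviations, as those of mutant replicate 3, were not simulated, so these shares need not hold for the real arrays. Most members differed by less than 1.5-fold.

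The members and lists were chosen with earlier results of these data known, and the lists were written from general knowledge. Named are all members on every probe set, and of each further list and of the mesenchymal, hESC and trophoblast markers the genes past the threshold and the 4 with the smallest adjusted p at the brightest probe set. COL5A2 is named at the probe set that passed. Some genes of the lists that had higher means in wt or overlapping groups are named in addition. For the other marker lists counts are given. The lists were counted and not tested as sets. Sites of miR-122 in 3′ UTRs were not analysed here. Plots were made in Python 3.11.15 (matplotlib 3.10.9).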

Additional observations from a re-analysis of the deposited data

How the results depend on the processing

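With 5 arrays, small differences of dim probe sets such as 214981_at and 215775_at could not be resolved. The alternatives covered a trend in intensity with robust shrinkage, the methods' t-test, leaving out dim or _x_at and _s_at probe sets, a replicate block, array weights, array centring, the mean of a gene's probe sets and each array left out. Of 277 values of member probe sets under them, 266 kept their direction and side of the threshold, 3 passed it and 8 changed sign. By the t-test and with a mutant array left out, 0 of all probe sets passed. In those settings no member could pass, and only the direction is informative. The t-test and the trend setting use the same differences as the main fit, so there the direction was fixed too. With the trend and robust prior 1 member probe set fell (SPARC 200665_s_at, -0.34). The labels share replicate numbers but state no pairing, and deviations of same-numbered arrays correlated at 0.15 and 0.12. The 2 wt arrays deviate from their mean by mirrored amounts, so crossing the numbers only turns the sign, to -0.15 and -0.12. These values therefore do not decide whether the arrays were paired. With the replicate block, which leaves 1 residual degree of freedom and in which mutant replicate 3 has no partner, 1 member rose (THBS2, 0.56) and 1 fell (TNC 216005_at, -0.54). Sign changes came with the block and without mutant replicate 3 for THBS1 201108_s_at (0.010, range over left-out arrays -0.27 to 0.010), 201107_s_at (0.13, range -0.33 to 0.13) and 215775_at (0.032, range -0.078 to 0.032). They also came without wt replicate 2 for 215775_at (0.014) and without wt replicate 1 for SPP1 209875_s_at (-0.080, range -0.080 to 0.27). The causes were not tested. The median of the members lay between -0.34 and -0.16 over all settings. Over all probe sets, 43 rose and 42 fell, 137 and 183 with the trend and robust prior, 364 and 531 with the block, 0 and 0 after adjustment by the t-test, which gave 1551 higher and 873 lower unadjusted, and 97 fell without dim probe sets. With a mutant array left out, 0 rose and 0 fell by limma. At an unadjusted p under 0.05 from limma those settings held 1407 to 1742 higher and 1206 to 1489 lower. Of the further lists, each with 0 calls, the block gave 1 to 4 falls and THBS4 as a rise, and the trend and robust prior 1 receptor and 2 YAP and TEAD genes as falls. Of the markers, the block gave 8 mesenchymal, 7 trophoblast and 4 smooth muscle and heart falls and 10 hESC and 2 endoderm rises, and the trend and robust prior 4 mesenchymal and 3 smooth muscle and heart falls and 6 hESC rises.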
